A study of Mus musculus with 18 samples.

Results

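The genes described here were 10 members and receptors of the interleukin 6 (IL-6), IL-10 and IL-12 cytokine families, namely Il6, Lif, Il10, Il12a, Il12b, Il23a, Il27 and Ebi3 on the ligand side and Il6ra and Il10ra on the receptor side. They were chosen by name, and all 10 of the 38887 listed genes were found in each of the 18 libraries by gene symbol and Ensembl identifier. RNA-seq had been made of bone marrow-derived macrophages (BMMs), which had been differentiated from mouse bone marrow with M-CSF for 6 days, in order to compare the response to LPS, the lipopolysaccharide of Gram-negative bacteria, between macrophages that lack or overexpress glucocorticoid-induced leucine zipper (GILZ, encoded by Tsc22d3). Each of the 3 genotypes was measured untreated and after LPS (100 ng/ml for 4 h) in 3 preparations each, and all libraries were labelled as female C57BL/6J.

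According to the methods, all 3 genotypes carried Cre recombinase in the Lyz2 locus, so that Cre is driven by the endogenous Lyz2 promoter of myeloid cells. WT animals carried this allele alone (B6.129P2-Lyz2tm1(cre)Ifo/J). GILZ KO animals had in addition loxP sites around exon 6 of Tsc22d3. GILZ TG animals had in addition a Tsc22d3/Gilz-1 cDNA in the ROSA26 locus behind a loxP-flanked stop cassette, in a strain whose name also lists EGFP. Deletion and overexpression were therefore limited to cells in which Lyz2 is or was active, and the age of the single animals was not in the labels.

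Some properties of the libraries bear on the genes below. The expected counts summed to between 14583055 and 38557029 per library (median 24450362), with the lowest depth in GILZ KO after LPS. Tsc22d3 was at 14.9 to 18.8 TPM (a level scaled by transcript length and library total) in untreated WT, 1.89 to 2.81 in GILZ KO and 152 to 160 in GILZ TG, and after LPS at 4.56 to 5.81, 2.50 to 3.28 and 127 to 141. After LPS the lower level in GILZ KO compared with WT missed the threshold (log2 fold change -0.69, adjusted p = 0.15 by edgeR's quasi-likelihood method), although the groups did not overlap. Lyz2 was at 6766 to 15401 TPM in the WT libraries and at 17.2 to 70.3 in all GILZ KO and GILZ TG libraries, so that in a comparison with WT the state of Lyz2 and the Gilz genotype cannot be told apart. GILZ KO and GILZ TG were alike in this respect, and the comparison between them is given first. The summed level of 7 macrophage markers was 3825 to 5021 TPM in all libraries, and 6 dendritic cell markers summed to at most 1.08 TPM, each under 1 TPM in every library. Summed over 6 T and NK cell markers, the libraries had 24.35 to 85.3 TPM, most of it from Il7r. The other 5 were under 1 TPM in every library, and among them Cd3d and Cd3e, which define T cells, were at 0 throughout. GILZ TG preparations 1 and 2 stood apart by markers of other cells. Summed over 7 stromal markers they had 100.7 and 115 TPM untreated and 80.2 and 109 after LPS, against 4.88 to 21.8 in all others. Summed over 7 B lineage markers they had 93.6 and 158 TPM untreated and 81.7 and 149 after LPS, against at most 36.1 in all others. Summed over 6 neutrophil lineage markers they had 17.1 and 47.6 TPM untreated and 16.8 and 42.4 after LPS, against at most 8.18 in all others. The values of 36.1 and 8.18 TPM were those of untreated GILZ TG preparation 3, little above the highest of WT and GILZ KO (35.5 and 7.44 TPM). By single markers, this preparation was still not free of other cells. Igkc, an immunoglobulin gene, was at 11.36 TPM or more in all untreated GILZ TG libraries and at 7.28 or more after LPS. In WT and GILZ KO it reached at most 1.46 TPM untreated and 2.22 after LPS. As preparations 1 and 2 stood apart, every result on GILZ TG was also computed without them. As 1 GILZ TG library per treatment then remained, whose spread had to be taken from the other groups, these values are given as fold changes without a test.

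The cytokines of these families are built from shared parts. IL-12 is a pair of the Il12a (p35) and Il12b (p40) chains, IL-23 pairs the same Il12b chain with Il23a (p19), and IL-27 pairs Il27 (p28) with Ebi3. IL-6 and LIF are single chains that signal through the common receptor chain gp130 (Il6st) and STAT3, with Il6ra as the specific receptor chain of IL-6, and IL-10 restrains macrophage activation through Il10ra, Il10rb and STAT3. Macrophages that sense LPS through Toll-like receptor 4 produce most of these ligands by way of NF-kB, AP-1 and interferon regulatory factors, and glucocorticoids and GILZ are known for limiting such responses.

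Promoter sequences were available for 6 of the 10 genes in the RefSeq table for GRCm38.p6. The 250 bases before the start site are shown for Il6 (chr5:30012864-30013113, plus strand) and Ebi3 (chr17:55952373-55952622, plus strand), which hold a match to the NF-kB consensus at the same distance from the start site, and for Il12b (chr11:44399813-44400062, plus strand), the gene with the largest called change between GILZ KO and GILZ TG after LPS among the 10. Capitals mark the NF-kB match, which lay 44 to 35 bases before the start site in both genes.
Il6: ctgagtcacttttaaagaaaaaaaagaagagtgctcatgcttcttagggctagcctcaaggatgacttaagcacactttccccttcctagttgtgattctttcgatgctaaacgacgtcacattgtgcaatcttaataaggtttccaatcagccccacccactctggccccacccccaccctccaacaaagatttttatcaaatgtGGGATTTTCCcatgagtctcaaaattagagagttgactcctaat
Ebi3: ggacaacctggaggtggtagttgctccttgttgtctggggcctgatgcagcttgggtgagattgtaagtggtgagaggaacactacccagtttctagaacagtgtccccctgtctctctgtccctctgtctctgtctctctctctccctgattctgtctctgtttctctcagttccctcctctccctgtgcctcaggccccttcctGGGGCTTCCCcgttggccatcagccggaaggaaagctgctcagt
Il12b: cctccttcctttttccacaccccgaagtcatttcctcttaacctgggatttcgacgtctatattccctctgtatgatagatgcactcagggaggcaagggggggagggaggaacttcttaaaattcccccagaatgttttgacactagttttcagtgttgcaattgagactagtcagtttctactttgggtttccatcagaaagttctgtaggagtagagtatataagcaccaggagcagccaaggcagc

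In windows of 300 bases (250 before and 50 after the start site) and on both strands, the NF-kB consensus was found in 4.35% of the 27025 promoters of the table. The AP-1 motif TGANTCA was found in 7.93% and the C/EBP motif TTNNGNAA in 40.7% of them. Il6 also held the AP-1 match TGAGTCA and the C/EBP match TTGTGCAA, Lif held the AP-1 match TGACTCA, and Il6ra held the C/EBP matches TTTCGTAA (on both strands) and TTCCTCAA. The windows of Il12b and Il12a contained no match to these motifs as written. They also held no interferon-stimulated response element (ISRE, 3.49% of promoters) and no TATAAA (14.2%). A match describes the letters of the window and no measured binding, and variants of a motif were not searched.

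In untreated BMMs, the ligand genes were low with the exception of Ebi3, whereas both receptor genes were clearly present. Ebi3 (Ensembl gene ENSMUSG00000003206 on chromosome 17, 55952640 to 55957022 in GRCm38) was the highest of the 10 genes in every genotype, followed by Il10ra, Il6ra and Il10. In WT it was at 54.9 ± 3.67 TPM (SD, n = 3), and Il10ra at 27.3 ± 0.44 and Il6ra at 24.8 ± 3.30 did not differ from each other beyond their spread. The order by TPM was completed by Il10 at 5.05 ± 1.27 and by 6 genes below 1 TPM. Among the latter, Il12a was at 0 in all 9 untreated libraries, and Il12b and Il23a reached at most 0.12 and 0.06 TPM in any library. Such values do not separate fewer cells of one kind from less RNA per cell, which in bulk samples cannot be told apart. The Ebi3 gene overlaps the antisense gene Gm16712 (0.18 to 1.81 TPM) and Il6ra overlaps Gm42809. As the sources used here do not state whether the strand was used in counting, reads of the overlapping pairs cannot be told apart.

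**Figure D1:**
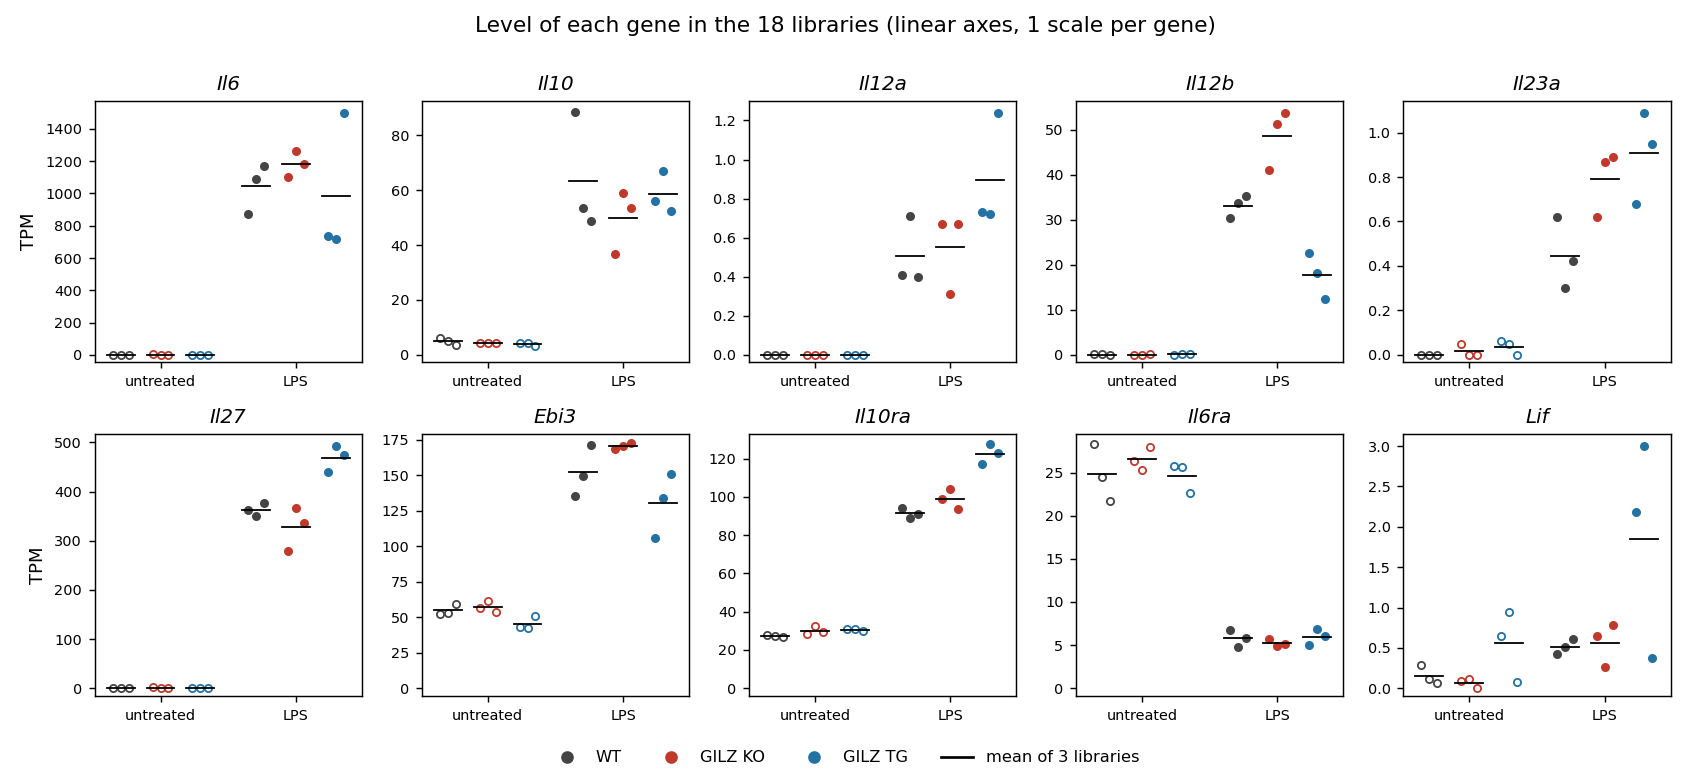
Level of the 10 genes in each of the 18 libraries, in TPM, by genotype and treatment. Points are single libraries (open without LPS) and lines are group means (n = 3). After LPS Il6 reached 721 to 1501 TPM, while Il6ra fell to 4.82 to 6.83 TPM in every genotype.

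LPS changed all 10 genes in every genotype (edgeR, adjusted p under the threshold of 0.05), with 9 of them higher and Il6ra lower. Of all genes tested, 68.6% were called in WT, 68.5% in GILZ KO and 68.7% in GILZ TG, where 33.5%, 33.2% and 33.6% of genes were higher and 35.1%, 35.4% and 35.1% lower. Untreated and LPS libraries did not overlap for any of the 10 genes apart from Lif in GILZ TG, against 81.2%, 83.7% and 80.9% of all genes. The 5 genes that passed the filter on low counts also without LPS were Il10, Il27, Ebi3, Il10ra and Il6ra. The other 5 entered through their LPS libraries, so that the count of 10 is a description only. LPS libraries were normalized by TMM. With library totals instead, the median change of all genes moved from about 0 to -0.70 (WT), -0.66 (GILZ KO) and -0.69 (GILZ TG) on the log2 scale, and the directions of the 10 genes remained.

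Il6 had the largest response among the genes with more than a few counts without LPS. In WT it was at 0.54, 0.60 and 0.47 TPM untreated and at 874, 1087 and 1171 TPM after LPS. GILZ KO libraries went from 1.92, 0.24 and 0.43 to 1101, 1261 and 1184 TPM, and GILZ TG libraries from 0.50, 0.12 and 0.43 to 734, 721 and 1501 TPM. Untreated and LPS libraries were far apart in each genotype, with a log2 fold change of 11.53 (SE 0.45) in WT, 10.93 (0.44) in GILZ KO and 12.15 (0.48) in GILZ TG. After LPS it was the highest of the 10 genes by TPM in every genotype.

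Il27, the specific chain of IL-27, was second. It was at 0.96, 0.90 and 0.65 TPM in untreated WT, and 0.44 to 1.69 TPM covered the untreated libraries of the other genotypes. Its LPS response on the log2 scale was 9.37 (SE 0.20) in WT, 8.87 in GILZ KO and 9.84 in GILZ TG. The partner chain Ebi3 started from a high level and rose less, by 2.10 (SE 0.13) in WT, 2.21 in GILZ KO and 2.15 in GILZ TG. Consequently the order of the 2 genes by RNA level changed, while the proteins were not measured here. Ebi3 exceeded Il27 in every untreated library, and Il27 exceeded Ebi3 in every LPS library.

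For the chains of IL-12 and IL-23, LPS brought Il12b to levels far above its partners. Il12b had 5, 3 and 5 reads in all untreated libraries of WT, GILZ KO and GILZ TG together, and its share of the library total was 550 times higher after LPS in WT (95% counting interval 235 to 1695), 1083 times in GILZ KO (370 to 5257) and 277 times in GILZ TG (119 to 855). Il12a had no read in any untreated library, and its share was at least 9.30-fold higher after LPS in WT, 8.63-fold in GILZ KO and 13.7-fold in GILZ TG, taken against a floor of 3 reads over the untreated group. Il23a was likewise at 0 in untreated WT and at least 8.92-fold higher after LPS. With 1 read in untreated GILZ KO and 2 in GILZ TG, its ratios were 37.5 (6.22 to 1533) and 23.3 (6.18 to 197). These intervals cover counting error only. Even after LPS both partners stayed below 1.3 TPM, so that Il12b exceeded Il12a by 69.9 ± 20.5 times in WT, 102.3 ± 55.5 in GILZ KO and 22.2 ± 10.9 in GILZ TG (ratio of TPM, SD, n = 3).

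Il10, the inhibitory ligand, was at 6.27, 5.14 and 3.73 TPM in untreated WT, at 4.17 to 4.30 in GILZ KO and 3.03 to 4.32 in GILZ TG. After LPS it was at 88.4, 53.4 and 48.7 TPM in WT, at 36.8, 59.0 and 53.4 in GILZ KO and at 56.0, 67.1 and 52.3 in GILZ TG. Its untreated and LPS libraries did not overlap, and the log2 fold change was 4.28 (SE 0.25) in WT, 4.18 in GILZ KO and 4.55 in GILZ TG. The genotypes overlapped after LPS. Lif (leukemia inhibitory factor), which is also known as a product of stromal cells, stayed low. It went from 0.29, 0.11 and 0.07 to 0.42, 0.51 and 0.61 TPM in WT (2.97, SE 0.83, adjusted p = 0.00438, the highest of the 10 genes), and its untreated and LPS libraries overlapped in GILZ TG alone.

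The receptors moved in opposite directions. Il10ra, the ligand-binding chain for IL-10, rose from 27.7, 27.3 and 26.9 to 94.1, 89.0 and 91.0 TPM in WT, while Il6ra fell from 28.3, 24.5 and 21.7 to 6.79, 4.82 and 5.82 TPM. Neither gene showed overlap between untreated and LPS libraries in any genotype. The log2 fold change of Il10ra was 2.39 (SE 0.07) in WT, 2.36 in GILZ KO and 2.64 in GILZ TG, and that of Il6ra was -1.46 (0.11), -1.71 and -1.42. With library totals these values were 1.71, 1.72 and 1.96 for Il10ra, and -2.14, -2.35 and -2.09 for Il6ra.

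**Figure D2:**
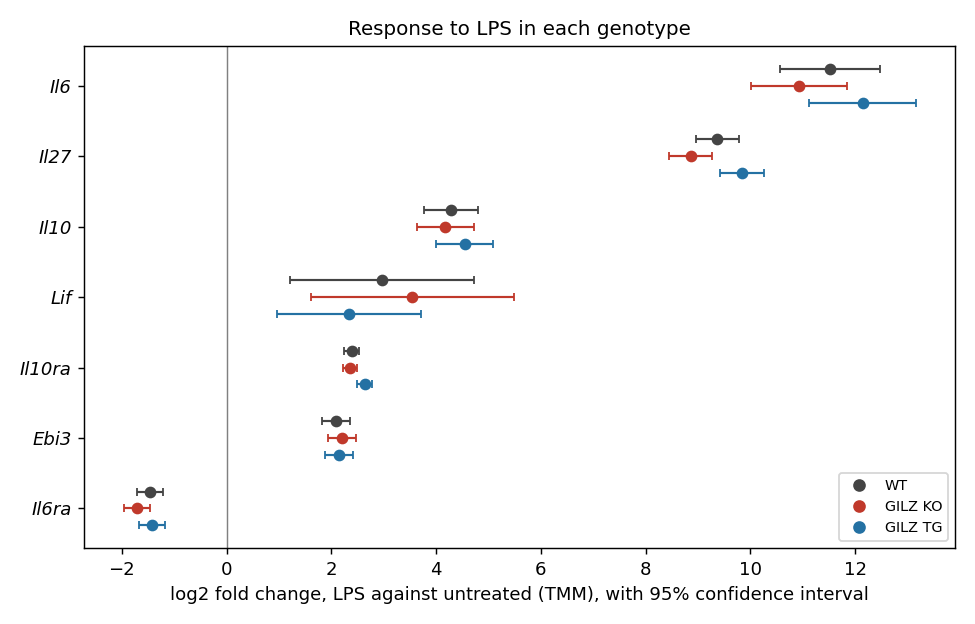
LPS response of Il6, Il27, Il10, Lif, Il10ra, Ebi3 and Il6ra, as log2 fold change of LPS against untreated BMMs in each genotype. Il12a, Il12b and Il23a, with at most 5 untreated reads per genotype, are not shown. Points are edgeR estimates from 3 against 3 libraries and lines their 95% intervals. Of the genes shown, Il6 responded most with 11.53 in WT, and Il6ra was the only one to fall (-1.46 in WT).

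After LPS, GILZ KO and GILZ TG differed in 3 of the 10 genes (edgeR, all 9 LPS libraries in one fit). Il12b was higher in GILZ KO, and Il27 and Il10ra were higher in GILZ TG. The background was 2.6% of all genes tested in this comparison, with 1.22% higher and 1.38% lower in GILZ KO. The groups did not overlap for 5 of the 10 genes, which were these 3, Il12a and Ebi3, against 20.6% of all genes.

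Il12b (chromosome 11, 44400063 to 44414033 in GRCm38), the shared chain of IL-12 and IL-23, was at 41.0, 51.3 and 53.8 TPM in GILZ KO after LPS, at 30.35, 33.8 and 35.2 in WT and at 22.7, 18.2 and 12.5 in GILZ TG. The groups were thus ordered GILZ KO, WT, GILZ TG without overlap, with means of 48.7 ± 6.78, 33.1 ± 2.51 and 17.8 ± 5.12 TPM (SD, n = 3). GILZ KO exceeded GILZ TG 2.69-fold, with a log2 fold change of 1.43 (SE 0.18, 95% interval 1.03 to 1.82, adjusted p = 0.00585). Without GILZ TG preparations 1 and 2 the change was 1.91, and in the other 13 alternatives the call was kept, with changes of 1.25 to 1.66 and adjusted p-values of at most 0.0331. Both comparisons with WT share the WT libraries and missed the threshold. GILZ KO against WT gave 0.55 (0.16 to 0.94, adjusted p = 0.362), and GILZ TG against WT gave -0.88 (-1.27 to -0.49, adjusted p = 0.0682). The latter was called in 5 of 13 alternatives, among them without GILZ TG replicate 1 (adjusted p = 0.0259) or 3 (0.0158), and was -1.36 without GILZ TG preparations 1 and 2. The partner chains gave no call between GILZ KO and GILZ TG. Il12a was at 0.40 to 0.71, 0.31 to 0.67 and 0.72 to 1.24 TPM in WT, GILZ KO and GILZ TG, on 3 to 19 reads per library (GILZ KO against GILZ TG -0.64, 95% interval -1.60 to 0.33). Il23a was at 0.30 to 0.62, 0.62 to 0.89 and 0.68 to 1.09 TPM, with -0.21 for GILZ KO against GILZ TG. GILZ TG against WT gave 0.99 for Il23a (adjusted p = 0.232), without overlap of the groups.

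Il27 (chromosome 7, 126589010 to 126594941) was at 279, 367 and 336 TPM in GILZ KO, at 362, 350.35 and 377 in WT and at 441, 493 and 474 in GILZ TG. All GILZ TG libraries were above all others, while GILZ KO and WT overlapped. GILZ KO was 1.44-fold below GILZ TG (log2 fold change -0.53, SE 0.10, 95% interval -0.74 to -0.31, adjusted p = 0.0249). The call was lost without GILZ KO replicate 1 or 3 or without GILZ TG replicate 1 or 2, with changes of -0.56 to -0.40 and adjusted p-values of 0.0648 to 0.0860. Without GILZ TG preparations 1 and 2 the change was -0.58. GILZ TG against WT gave 0.37 (0.15 to 0.59, adjusted p = 0.132), which DESeq2 called (0.0345).

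Its partner Ebi3 was ordered in the opposite way. After LPS it was at 168, 171 and 172 TPM in GILZ KO, at 135, 149 and 171 in WT and at 106, 134 and 151 in GILZ TG. GILZ KO and GILZ TG did not overlap and WT overlapped with both, but the difference between GILZ KO and GILZ TG did not pass the test (0.38, SE 0.12, 95% interval 0.12 to 0.65, adjusted p = 0.113). Without GILZ TG replicate 3 it was called, at 0.52 (adjusted p = 0.00933). Without GILZ TG preparations 1 and 2 the change shrank to 0.13, and GILZ TG against WT was 0.024. A like order was present without LPS, with 56.7, 61.3 and 53.8 TPM in GILZ KO, 52.45, 53.1 and 59.1 in WT and 43.0, 42.55 and 50.5 in GILZ TG. Untreated GILZ TG was below all other libraries, with 0.30 for GILZ KO against GILZ TG (0.08 to 0.52, adjusted p = 0.0943, and 0.0304 without GILZ TG replicate 3) and -0.29 for GILZ TG against WT (-0.51 to -0.07, adjusted p = 0.222). Without GILZ TG preparations 1 and 2 these untreated changes were 0.13 and -0.12. The ratio of Ebi3 to Il27 after LPS was 0.603, 0.465 and 0.513 in GILZ KO, 0.374, 0.426 and 0.455 in WT and 0.24, 0.272 and 0.318 in GILZ TG. The 3 genotypes did not overlap in this ratio of TPM values, for which no test was made.

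**Figure D3:**
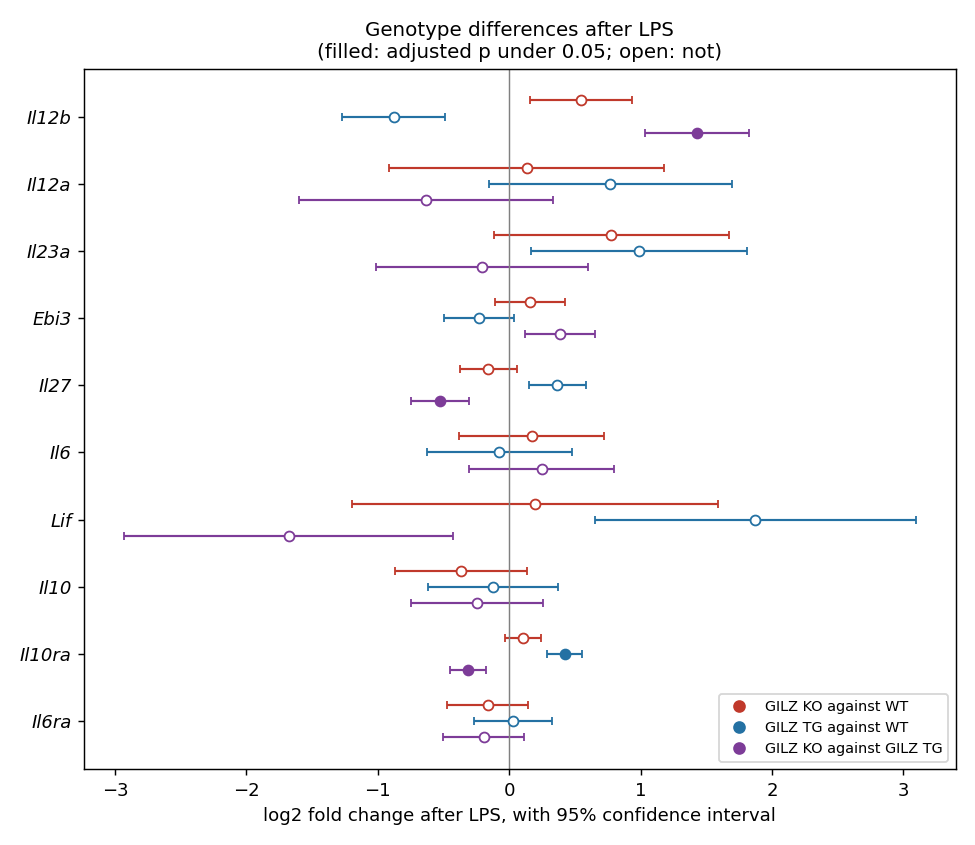
Differences between genotypes after LPS for the 10 genes, as log2 fold change with 95% intervals from edgeR (9 LPS libraries in one fit). Filled symbols mark an adjusted p under 0.05, which Il12b, Il27 and Il10ra reached in GILZ KO against GILZ TG and Il10ra in GILZ TG against WT.

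Il6 and Il10 were not called between genotypes. The GILZ TG libraries spread most for Il6, with preparations 1 and 2 at 734 and 721 TPM below all other LPS libraries and preparation 3 at 1501 TPM above all of them. GILZ KO against GILZ TG gave 0.25 (95% interval -0.30 to 0.80, adjusted p = 0.646) and GILZ TG against WT gave -0.08 (-0.63 to 0.47, adjusted p = 0.919). These values turned with the choice of GILZ TG libraries. Without replicate 3 they were 0.71 (adjusted p = 0.00394) and -0.54 (0.0189), both called, and without preparations 1 and 2 they were -0.39 and 0.56. For Il10 GILZ KO against GILZ TG gave -0.24, with an interval of -0.75 to 0.26 that leaves room for changes of either sign. The ratio of Il12b to Il10 was 0.997 ± 0.122 in GILZ KO, 0.567 ± 0.199 in WT and 0.305 ± 0.0882 in GILZ TG (TPM, SD, n = 3). WT and GILZ TG overlapped in this ratio (0.343 in WT replicate 1, 0.405 in GILZ TG replicate 1), and it was not tested.

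Lif was high in 2 of the 3 GILZ TG preparations. After LPS it was at 2.18, 3.00 and 0.37 TPM in GILZ TG, against a range of 0.26 to 0.78 over GILZ KO and of 0.42 to 0.61 over WT, and without LPS at 0.65, 0.95 and 0.08 in GILZ TG against at most 0.29 elsewhere. The 2 high preparations were those with high stromal and B lineage markers, 80.2 and 109 against 10.3 TPM for the stromal sum after LPS. GILZ KO against GILZ TG gave -1.68 (-2.93 to -0.43, adjusted p = 0.136) and GILZ TG against WT 1.87 (0.65 to 3.10, adjusted p = 0.159). Without these preparations the values were 0.54 and -0.35. Without GILZ TG replicate 3 both differences were called (-2.11, adjusted p = 0.00160, and 2.31, adjusted p = 0.00112). The part of other cell types in the level of Lif was not tested. For Il12b, GILZ TG preparation 3, which had the lowest of these stromal sums, had the lowest level of all LPS libraries (12.5 TPM).

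**Figure D4:**
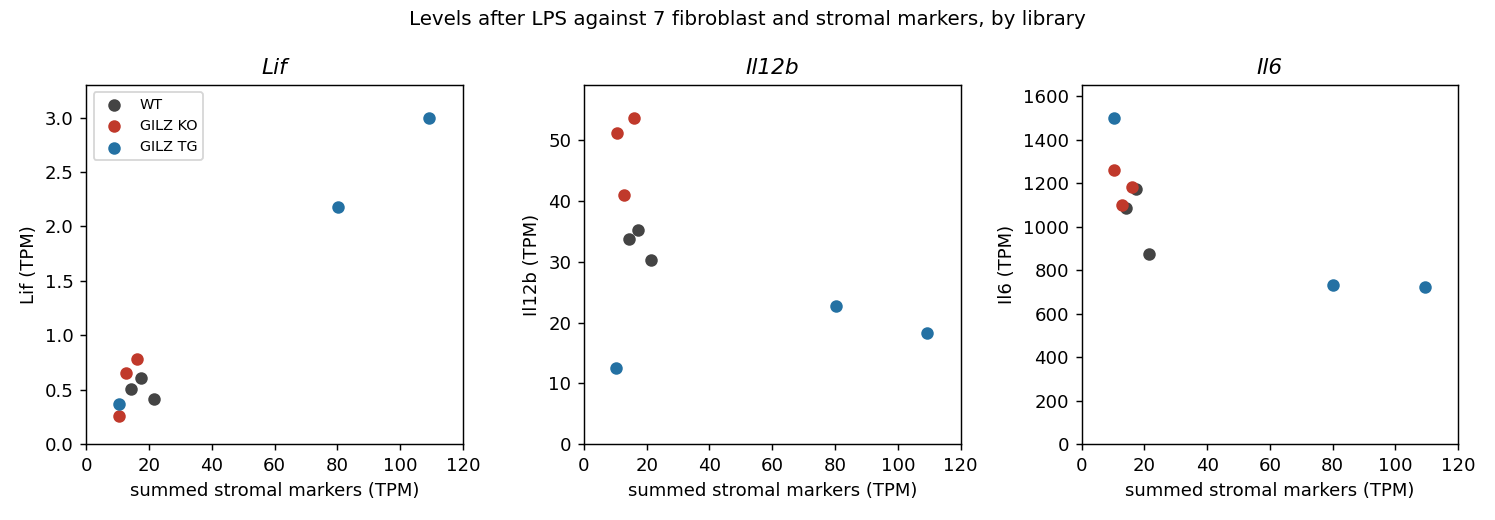
Levels of Lif, Il12b and Il6 after LPS against the summed level of 7 stromal marker genes, both in TPM, in the 9 LPS libraries. The 2 GILZ TG libraries with a stromal sum of 80.2 and 109 TPM had the highest Lif, and the GILZ TG library at 10.3 TPM had the highest Il6 (1501 TPM) and the lowest Il12b (12.5 TPM).

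Among the receptors, Il10ra (chromosome 9, 45253837 to 45269149, minus strand) was higher in GILZ TG after LPS. It was at 117, 128 and 123 TPM in GILZ TG, at 94.1, 89.0 and 91.0 in WT and at 98.9, 104 and 93.5 in GILZ KO. All GILZ TG libraries were above all others, and WT and GILZ KO overlapped. GILZ TG exceeded WT 1.34-fold (log2 fold change 0.42, SE 0.06, 95% interval 0.29 to 0.56, adjusted p = 0.0171) as the only called gene of the 10 in this comparison, where 0.46% of all genes were called (0.263% higher and 0.197% lower). GILZ KO was below GILZ TG by -0.32 (SE 0.06, -0.45 to -0.18, adjusted p = 0.0277). The call against WT was lost without WT replicate 2 or 3 or GILZ TG replicate 2 (adjusted p = 0.0705 to 0.101), the call against GILZ KO without GILZ KO replicate 1 or 3 or GILZ TG replicate 1 or 2 (0.0761 to 0.145). Without GILZ TG preparations 1 and 2 the changes were about as large, with 0.46 against WT and -0.36 for GILZ KO against GILZ TG. Il6ra was at 4.82 to 6.83 TPM in all LPS libraries, and GILZ KO against GILZ TG gave -0.19 (-0.50 to 0.11).

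In GILZ TG against WT after LPS, 5 of the 10 genes did not overlap (Il12a, Il12b, Il23a, Il27 and Il10ra), against 15.2% of all genes. In GILZ KO against WT after LPS none of the 10 genes was called by edgeR or by DESeq2, 1 had an unadjusted p under 0.05, and 0.0822% of all genes were called. Il12b alone did not overlap there, against 16.3% of all genes. Without LPS, 5 of the 10 genes could be tested and none was called between any genotypes by edgeR or DESeq2. The number of genes with an unadjusted p under 0.05 was 0 for GILZ KO against WT, 2 for GILZ TG against WT and 1 for GILZ KO against GILZ TG, and 0.0951%, 0.642% and 4.94% of all genes were called. Il10ra in untreated BMMs was at 26.9 to 27.7 TPM in WT, below the 28.1 to 32.7 of GILZ KO and the 29.8 to 30.8 of GILZ TG. Among the 5 genes the groups thus did not overlap for Il10ra in both comparisons with WT and for Ebi3 in both with GILZ TG, while 17.2%, 14.9% and 28.7% of all genes did not overlap in these comparisons.

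Whether the LPS response itself differed between genotypes was tested in a fit of all 18 libraries, which did not pair untreated with LPS libraries. None of the 10 genes was called in any of the 3 differences by edgeR or DESeq2, with 0, 1 and 2 genes at an unadjusted p under 0.05 for GILZ KO minus WT, GILZ TG minus WT and GILZ KO minus GILZ TG. Among all genes 0.0152%, 0.00759% and 0.121% were called. The response of Il10ra in GILZ KO minus that in GILZ TG was -0.28 on the log2 scale (95% interval -0.47 to -0.09, adjusted p = 0.230) and that of Il27 -0.98 (-1.90 to -0.05, adjusted p = 0.463). For Il12b the same difference had an interval of -0.94 to 4.89, with few untreated reads behind it.

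Genes of the wider pathway were also measured with LPS. Of 51 further genes that could be tested in 5 lists (other ligands, other receptor chains, JAK-STAT signalling, IL-10 response, and regulators of these cytokines), 44 were called in WT, 44 in GILZ KO and 45 in GILZ TG, against 68.6%, 68.5% and 68.7% of all genes. In WT, 16 of 18 regulators rose and 1 fell (15 and 2 with library totals), 12 of 14 genes of JAK-STAT signalling rose and 1 fell (9 and 4), all 6 genes of the IL-10 response rose, and 3 of 4 other ligands rose. Of 10 receptor chains 4 rose and 2 fell, which became 3 and 6 with library totals. The median log2 fold change was 2.96 for the regulators, 2.39 for JAK-STAT signalling, 1.75 for the IL-10 response, 2.06 for the other ligands and 0.28 for the receptor chains, against -0.02 over all genes. The largest increases were those of Il23r (7.98 on the log2 scale, from 1 untreated read), a chain of the IL-23 receptor, and of the feedback inhibitors Socs1 (6.69) and Cish (6.21). Socs3, the inhibitor of gp130 signalling, was at 23.95 TPM in untreated and 947 TPM in LPS-treated WT (5.92). The common chain Il6st fell together with Il6ra, from 39.9 to 11.4 TPM (-1.46), and the largest decrease was that of Pias3, an inhibitor of STAT3 (-1.48).

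Stat3, the signal transducer shared by the IL-6 and IL-10 receptors, rose as well, from 34.9 to 136 TPM (2.60). Osm, a further ligand of the IL-6 family, rose by 2.37, and Il12rb1, a receptor chain for IL-12 and IL-23, by 2.67. Il11ra1 fell by 0.38. Il10rb, the second chain of the IL-10 receptor, gave 0.51 with TMM but -0.17 with library totals, and Il27ra gave 0.05 and -0.62, so that no direction is given for them.

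Between GILZ KO and GILZ TG, 4 of 48 list genes that could be tested were called without LPS and 2 of 51 after LPS, against 4.94% and 2.6% of all genes, so that the count after LPS was near the background. Untreated, Il12rb2, a receptor chain for IL-12, was at 19.9, 19.5 and 18.5 TPM in GILZ KO and 9.89, 8.23 and 12.7 in GILZ TG (0.88, adjusted p = 0.0108). Clcf1, a ligand of the IL-6 family, was at 0.54, 0.41 and 0.67 in GILZ KO and 1.25, 1.91 and 1.00 in GILZ TG (-1.49, adjusted p = 0.0321). Il11ra1 gave -0.46 (0.0351, with overlap) and Sp1 0.27 (0.0275). After LPS, where the list medians lay between -0.05 and 0.25, the 2 called genes were Irf1 and Irf8. Both are interferon regulatory factors in the list of regulators, which was chosen with earlier results of these data known. Irf1 was at 355, 396 and 357 TPM in GILZ KO and 527, 532 and 454 in GILZ TG (-0.45, adjusted p = 0.0323), and Irf8 was at 81.5, 95.1 and 87.1 against 135, 141 and 117 (-0.57, adjusted p = 0.0285). The calls of Irf1 and Irf8 were lost without any one GILZ KO replicate or GILZ TG replicate 1 or 2 (adjusted p = 0.0530 to 0.161). That of Il12rb2 was lost without GILZ KO replicate 1 (0.0584) or 2 (0.0503), and those of Clcf1, Il11ra1 and Sp1 without any one GILZ KO replicate or GILZ TG replicate 2 (0.0600 to 0.136), for Clcf1 and Sp1 also without GILZ TG replicate 1 (0.0706 and 0.0609). Without GILZ TG preparations 1 and 2 the changes kept their direction, with 0.56 for Il12rb2, -0.95 for Clcf1, -0.49 for Il11ra1, 0.31 for Sp1, -0.33 for Irf1 and -0.46 for Irf8.

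In the comparisons with WT none of the list genes was called by edgeR. GILZ KO against WT had 8 of 48 at an unadjusted p under 0.05 without LPS and 5 of 51 after LPS, where all genes had 1211 of 12621 and 1171 of 12164, and DESeq2 called 1 and 0. GILZ TG against WT had 12 and 11, where all genes had 1780 and 1852, and DESeq2 called 3 and 4. Osm was higher in GILZ KO than in GILZ TG after LPS by 0.88, which missed the threshold (adjusted p = 0.0666), and Il12rb1 gave -0.48 (0.154). In the differences of the LPS response between genotypes none was called by edgeR either, with 4, 3 and 7 at an unadjusted p under 0.05 (838, 407 and 1306 of all 13169 genes) and 0, 0 and 2 by DESeq2.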

How the data were processed

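RNA of BMMs was sequenced as 1 x 75 nt reads from poly(A) libraries made with a strand-marking kit, in 18 libraries. The authors checked the reads with FastQC 0.11.2 and mapped them to GRCm38 (mm10) with the grape-nf pipeline. The deposited tables give for each library an expected count, which estimates the reads of each gene and is not normalized. They also give the TPM, which the authors' quantification scaled by effective transcript length and by the library total. The authors' deposited DESeq2 1.40.2 tables hold fold changes and p-values, which were not used. Only their pairing of identifiers with symbols was taken from them. Blank rows that name no gene (1 in each of 14 libraries) were left out. Of all identifiers 37570 matched a symbol.

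Groups were taken from the labels. Depth ranged from 14583055 to 38557029 expected counts, which limits genes with few reads. Expected counts (5.04% to 6.93% of the values in a library were not whole, and 0 of the values of the 10 genes) were rounded, filtered with filterByExpr, normalized by TMM and compared by edgeR 4.0.16 (quasi-likelihood F-test, R 4.3.3) over all genes that passed, with Benjamini-Hochberg adjustment at 0.05. Genotypes were compared in one fit of the 9 libraries of a treatment with genotype as the only factor, and LPS responses in a fit of all 18. The labels and methods describe separate preparations of 3 mice. In the genotype comparisons within a treatment, p-values measure the spread between these. The fit of all 18 libraries took untreated and LPS libraries as independent. Its p-values ignore the pairing of untreated and LPS libraries that is described below for GILZ TG. The code was tested on simulated data with known changes. Promoters were read from RefSeq, and Python 3.11.15 with matplotlib 3.10.9 was used for the figures.

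The 10 genes, the 5 lists, the marker lists and the tests were chosen with earlier results of these data known. Besides the 10 genes, Tsc22d3 and Lyz2, the named genes were Il6st, Il10rb, Il12rb1, Il27ra, Stat3, Socs3 and Osm, list genes called between genotypes, the 3 largest and 3 smallest LPS changes of the lists in WT, and the 3 genes most similar to Il6, Il10, Il12b and Ebi3. A further gene of this rule is not reported here.

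Alternatives were DESeq2 1.42.0, its size factors, no filter, a filter of 10 counts in 3 libraries, the compared libraries alone, all 18 libraries, a replicate block and each replicate left out. GILZ TG preparations 1 and 2 left out and library totals were chosen after seeing the data. Same-numbered untreated and LPS libraries correlated above 0.1 (deviations from group means) in 4 of 9 pairs, in GILZ TG in all 3 (0.266 to 0.605), and same-numbered libraries of different genotypes in 2 of 18.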

Additional observations from a re-analysis of the deposited data

Results flagged for a closer look

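Tsc22d3, the gene that encodes GILZ, is the gene that the genotypes were made to change. The LPS response of its reads differed between genotypes in a test of the difference itself (edgeR, all 18 libraries). It was higher in GILZ KO than in WT by 2.02 on the log2 scale (adjusted p = 7.82e-04, called in 19 of 19 alternatives). In GILZ TG it was higher than in WT by 1.43 (adjusted p = 0.00139, called in 19 of 19 alternatives with more than 1 GILZ TG library per treatment). Without GILZ TG preparations 1 and 2, so that 1 GILZ TG library per treatment remained, the difference was 1.44. In GILZ TG the reads of Tsc22d3 (127 to 160 TPM) include those of the inserted cDNA, which is driven by another promoter. In GILZ KO they were the 45 to 74 reads per library left after the deletion. The genotypes thus differed in the source of these reads. Whether GILZ changes the LPS response of the endogenous gene was not tested. The responses themselves depended on the scaling. With TMM they were -1.1 in WT, 0.92 in GILZ KO, where TPM values overlapped, and 0.33 in GILZ TG, and with library totals they were -1.78, 0.29 (adjusted p = 0.142, not called) and -0.34.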

How the results depend on the processing

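Depth and the number of preparations limit what can be told of Il12a, Il23a and Lif, which had few reads. The alternative without GILZ TG preparations 1 and 2 was chosen after seeing the data. It left 1 GILZ TG library per treatment, assumed to vary like the other groups. In it 5 differences that had not been called turned their sign. These were Ebi3 (0.024), Il6 (0.56) and Lif (-0.35) in GILZ TG against WT after LPS, and Il6 (-0.39) and Lif (0.54) in GILZ KO against GILZ TG. With replicates left out in turn, Ebi3 in untreated GILZ KO against WT was -0.042 to 0.11 (-0.036, -0.017 and -0.042 where turned) and Il6 in GILZ TG against WT after LPS -0.54 to 0.12 (0.093 and 0.12 where turned). The cause was not tested.

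Among the 10 genes, the number called in GILZ TG against WT after LPS (1) became 4 with DESeq2, 4 without a filter, 2 with all 18 libraries and 0 to 4 with replicates left out. In GILZ KO against GILZ TG after LPS (3) it became 5 with DESeq2, 5 without a filter, 1 without GILZ KO replicate 1 or 3 or GILZ TG replicate 1 or 2, and 6 without GILZ TG replicate 3. Untreated, it rose from 0 to 1 (GILZ TG against WT) or 2 (GILZ KO against GILZ TG) without GILZ TG replicate 3, and to 1 without a filter in the latter. In the LPS comparisons of WT and GILZ KO it was 8 with the compared libraries alone, where Il12a and Il23a did not pass the filter and were not tested.

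Replicate numbers did not pair the genotypes. With a replicate block, GILZ KO against GILZ TG after LPS gave 3 called genes of the 10, which were Il12b, Il27 and Ebi3, while Il10ra missed the threshold (adjusted p = 0.0559), and GILZ TG against WT gave 1. Within GILZ TG the numbers paired untreated and LPS libraries, and all 10 genes were called with preparation as a block.

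Over all genes the number called without LPS was 12 for GILZ KO against WT (DESeq2 79, no filter 21, replicates left out 5 to 6), 81 for GILZ TG against WT (315, 175, 16 to 665) and 623 for GILZ KO against GILZ TG (DESeq2 1218, replicates left out 79 to 1306). After LPS it was 10 (DESeq2 100, no filter 88, all 18 libraries 29, replicates left out 4 to 23), 56 (274, 412, 252, 15 to 1067) and 316 (715, 822, 795, 24 to 1403). For the differences of the LPS response it was 2 (DESeq2 20, size factors 1, library totals 1, replicate block 8), 1 (DESeq2 2, replicate block 2) and 16 (DESeq2 150, no filter 63, library totals 28, replicate block 144). For GILZ KO against WT after LPS 50% of calls were higher, and 36.4% with library totals. In the LPS comparisons the share of higher calls was 48.9%, 48.4% and 48.9% in WT, GILZ KO and GILZ TG, and 18.9%, 18.8% and 18.5% with library totals.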

Other observations

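For 4 of the ligand genes, the genes with the most similar levels over the 9 LPS libraries were listed (Pearson r of log2(TPM + 1) among 9148 genes with at least 5 TPM in a library). The libraries differed in depth and, for GILZ TG preparations 1 and 2, in markers of other cells, and r is given as a description. Those most like Il12b were Vps18 (0.972), a subunit of endosomal tethering complexes, Mgst1 (0.948), a microsomal glutathione transferase, and Psmd10 (0.938), a proteasome chaperone. Mgst1 was at 54.7 ± 2.96 TPM in GILZ KO, 46.1 ± 1.65 in WT and 32.3 ± 3.09 in GILZ TG after LPS (SD, n = 3). That its genotypes were ordered without overlap like those of Il12b goes with its selection over the same libraries. Unlike Il12b, which was near 0 without LPS, it had this order also untreated. It was then at 61.75 to 65.1 TPM in GILZ KO, 51.61 to 55.21 in WT and 36.91 to 44.53 in GILZ TG. Those most like Ebi3 were Ralgds (0.970), the acute phase gene Saa3 (0.967) and the guanine deaminase Gda (0.967). Saa3 was at 2439 ± 68.4 TPM in GILZ KO, 1626 ± 667 in WT and 924 ± 428 in GILZ TG.

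Il6 was most like Zfp558 (0.974), endothelin 1 (Edn1, 0.967) and Cd33 (0.960). Edn1 was, as Il6, spread most in GILZ TG, with 78.1 to 168 TPM, while GILZ KO had 117 to 163 and WT 95.35 to 147. Il10 was most like Gbp9 (0.937) and Ifi206 (0.934), which belong to interferon-induced gene families, and Uaca (0.931).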
